A study of Arabidopsis thaliana with 15 samples.

Results

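The genes described here are 37 Arabidopsis thaliana genes that were well expressed in dark-grown hypocotyl explants before culture and were at or near 0 after culture on callus and shoot induction media. They were chosen by their levels in these libraries: a mean of at least 30 CPM (the count of a gene divided by the total count of its library, times 1000000) at 0 h, at least 20 CPM in each 0 h library, and a mean of at most 1 CPM in each of the 4 culture groups. They were 37 of 33602 genes in the table, or 0.1101%, and 37 of the 10291 genes that met both limits at 0 h, or 0.360%. Since the fall from 0 h to culture chose the genes, it is described here without a test. That no 0 h library overlapped a culture library was fixed by these limits. The level in each culture group was limited too, so differences among the culture groups are described by their counts, and no p-value is given for any of the 37 genes.

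The study followed shoot regeneration from hypocotyl pieces kept at a lower or a higher temperature, with RNA sequenced from 15 libraries in 5 groups of 3. All plants were of the wild-type ecotype Col-0, and each library came from about 100 pooled explants cut from the middle of the hypocotyl of 7-day-old seedlings raised in darkness at 22 °C. The 0 h group was taken at 22 °C with no culture. The CIM groups had spent 4 days on callus-inducing medium that held 0.5 mg/L of 2,4-D, a synthetic auxin, together with 0.1 mg/L of kinetin, a cytokinin, either at 17 °C or at 27 °C. The SIM groups had then spent a further 4 days on shoot-inducing medium that held 0.5 mg/L of 2-iP, another cytokinin, together with 0.15 mg/L of IAA, the natural auxin, at 17 °C or at 27 °C. All culture was in continuous light. Light, medium, hormones, temperature, cutting and time therefore all differ between 0 h and every culture group and cannot be told apart. In RNA from whole explants, fewer cells of a type and less RNA per cell cannot be told apart either. The labels do not say that libraries of a group came from separate cultures, so the spread between libraries, which also enters the tests on other genes, may be technical.

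A hypocotyl kept in darkness elongates by cell expansion, with water drawn into the vacuole, a wall that is loosened and rebuilt, and a cuticle that is laid down over the growing surface. Auxin and gibberellin promote this growth, and phytochrome-interacting factors keep the dark programme on until light is seen. On callus-inducing medium, cells around the vascular tissue re-enter division and form a mass with many properties of a root primordium, from which shoots can be formed on a medium rich in cytokinin.

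Promoters are shown for the 2 genes of the dehydration group, because they are a pair from 1 family whose upstream sequences hold several abscisic acid response element cores, and for the 2 lipid transfer genes, because they are near-identical neighbours. Each sequence is the 250 bases before the RefSeq gene start (TAIR10.1), read on the gene's own strand. LTI65 lies at chr5:21236771-21237020 (+) and AT4G25580 at chr4:13055933-13056182 (+), and in these capitals mark the core ACGTG or its reverse complement CACGT.
LTI65: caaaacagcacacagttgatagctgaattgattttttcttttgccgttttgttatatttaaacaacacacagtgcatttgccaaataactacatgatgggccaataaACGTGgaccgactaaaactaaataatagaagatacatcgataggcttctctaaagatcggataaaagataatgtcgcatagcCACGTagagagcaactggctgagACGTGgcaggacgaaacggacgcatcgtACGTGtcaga
AT4G25580: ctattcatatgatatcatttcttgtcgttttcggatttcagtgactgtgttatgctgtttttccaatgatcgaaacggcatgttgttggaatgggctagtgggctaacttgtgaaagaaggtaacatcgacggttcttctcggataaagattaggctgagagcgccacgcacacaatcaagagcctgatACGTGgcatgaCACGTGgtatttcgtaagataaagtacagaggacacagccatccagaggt
In the next 2, AT4G12510 at chr4:7417874-7418123 (-) and AT4G12520 at chr4:7421829-7422078 (-), capitals mark the longest run of letters they share, which is 66 bases long.
AT4G12510: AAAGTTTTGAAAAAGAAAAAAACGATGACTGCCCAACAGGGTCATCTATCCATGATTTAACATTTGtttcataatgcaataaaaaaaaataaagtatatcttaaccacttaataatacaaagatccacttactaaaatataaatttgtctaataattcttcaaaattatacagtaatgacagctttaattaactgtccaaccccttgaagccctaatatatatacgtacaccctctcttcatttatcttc
AT4G12520: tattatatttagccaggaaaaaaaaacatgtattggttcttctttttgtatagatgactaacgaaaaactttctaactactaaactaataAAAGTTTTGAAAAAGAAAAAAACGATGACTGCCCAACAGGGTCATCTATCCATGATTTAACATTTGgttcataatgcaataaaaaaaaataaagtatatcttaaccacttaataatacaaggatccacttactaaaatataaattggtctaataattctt
The shared run spans positions -250 to -185 of AT4G12510 and -160 to -95 of AT4G12520, counted back from the gene start. LTI65 had 4 core starts, at positions -143, -61, -38 and -10, and AT4G25580 had 3, of which 2 are both strands of 1 palindromic G-box (CACGTG, which overlaps the core). Among all 37 genes the core was present in 9 promoters, or 24.3%, beside 23.3% of the genes at the 0 h limits and 21.6% of 32834 promoters. At least 4 core starts were found in LTI65 and NUDT8, which is 5.41% of the 37 genes, beside 1.60% of the genes at the 0 h limits and 1.17% of all promoters. In NUDT8 as well, 2 of the 4 starts, at -22 and -21, are both strands of 1 G-box. The G-box was in 5 promoters, or 13.5%, beside 7.44% and 5.83%. CACATG was in 3 (8.11%, beside 10.9% and 10.8%), TATAAA in 19 (51.4%, beside 46.8% and 45.8%) and GGCCCA in 1 (2.70%, beside 17.7% and 12.3%). Both strands were searched, and a match describes letters and not a bound site.

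Total counts ranged from 3427707 to 4446863 per library, so 1 CPM is 11.6 to 12.7 counts over the 3 libraries of a culture group, and the 3 counts taken as the floor of a group are 0.237 to 0.258 CPM. A gene at 0 in a group may be present below that floor. Floors given here cover counting error only. Some transcripts of photosynthesis were low at 0 h, in tissue taken from darkness. The small subunit gene RBCS1A was at 1.17 CPM and the light-harvesting gene CAB1 at 3.603 CPM, against 62.8 and 83.0 CPM after SIM at 17 °C. The 26 genes of a photosynthesis list summed to 330 to 371 CPM at 0 h, which lies above the first and second libraries of CIM at 17 °C, at 294 and 311 CPM. Of these 26 genes, 4 met the limits at 0 h. They were LHCA4, PSBO1, LHCB4.1 and RCA, at 72.0, 58.5, 56.8 and 56.4 CPM at 0 h and 57.9, 87.6, 57.9 and 91.5 CPM after SIM at 17 °C. Summed over a list each (the epidermis list is given with the cuticle genes), genes of the vasculature were at 1980 to 2021 CPM at 0 h and 1075 to 1764 CPM in culture, those of root tissue at 380 to 407 and 457 to 687 CPM, and those of stomata at 9.46 to 12.3 and 11.7 to 57.5 CPM. The root hair gene EXPA7 was at 0 at 0 h, while 4 of the 19 root tissue genes met the limits at 0 h. These were SCR, SHR, CASP1 and MYB36, at 113, 109, 56.7 and 44.7 CPM. A seed storage and oil body list set the 0 h libraries apart, with a summed level of 899, 67.9 and 574 CPM in libraries 1, 2 and 3. Its genes were matched by symbol, and RAB18 (AT1G43890) and CRB (AT1G09340) may not be the seed genes of those names. RAB18 had a mean of 41.3 CPM at 0 h and 40.3 to 45.5 CPM in culture, so the sum of library 2 may be largely other RNA. The seed storage gene CRA1 was at 304, 0.811 and 255 CPM in libraries 1, 2 and 3. Libraries 1 and 3 of CIM at 27 °C did not differ at any gene beyond counting noise and were also counted as 1 sample, so their group is given here without an SD.

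The 37 genes stood at the lower edge of a broad range of culture levels. Of the 10291 genes at the 0 h limits, 8087, or 78.6%, stayed at 30 CPM or more in every culture group, and 927 had a highest culture mean of at most 30 CPM. That number fell to 265 at 10 CPM, 156 at 5 CPM, 70 at 2 CPM, 37 at 1 CPM and 23 at 0.5 CPM, so no gap separates the 37 from genes that kept a little more. The median of their 0 h means was 45.4 CPM, below the 64.8 CPM of all genes at the 0 h limits, and their median exon length was 1372 bases against 2022. In culture the median of their group means was 0.162 CPM on CIM at 17 °C, 0.0851 on CIM at 27 °C, 0.0826 on SIM at 17 °C and 0.0794 on SIM at 27 °C, while that of all tested genes was 32.5 to 33.5 CPM.

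**Figure D1:**
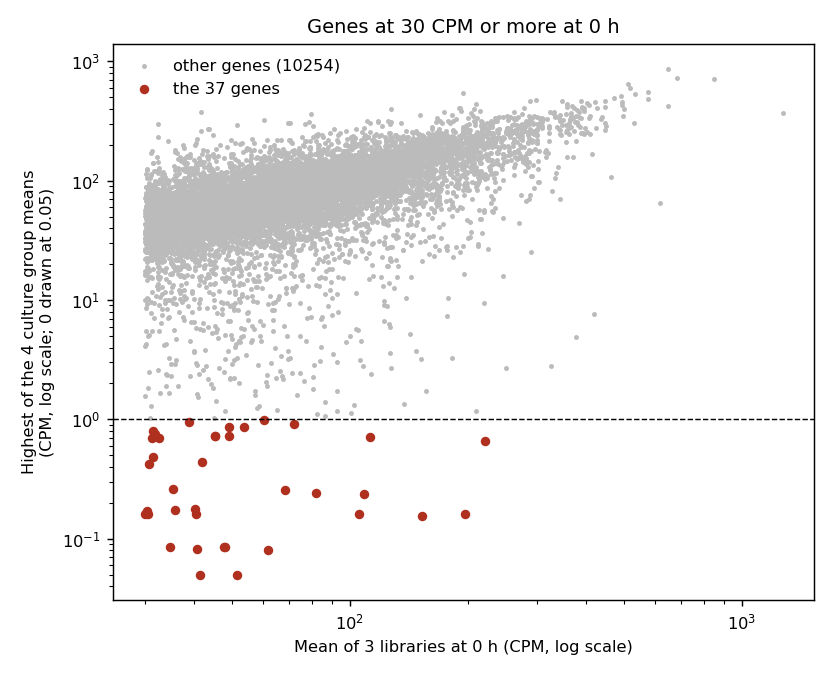
Mean level at 0 h (CPM, log scale) against the highest of the 4 culture group means (CPM, log scale, with 0 drawn at 0.05) for the 10291 genes at the 0 h limits; red points are the 37 genes, grey points the other 10254, and the dashed line is the limit of 1 CPM. The red points lie across 30.1 to 222 CPM at 0 h, and grey points lie directly above the line.

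At the lower 0 h limit, AT3G56275, AT1G14160 and AT4G12510 were taken with means of 30.1, 30.4 and 30.6 CPM. AT3G29410, the wax ester synthase gene WSD1 and the GDSL lipase gene GLIP2 were not, with 28.9, 28.3 and 28.2 CPM and culture means of at most 0.736, 0 and 0.341 CPM. At the culture limit, bZIP3, AT2G34700 and AT4G38690 were taken with highest means of 0.991, 0.952 and 0.911 CPM. AT3G45260, PIF4 and SNRK2.7 were not, with 1.02, 1.03 and 1.07 CPM. PIF4, which encodes a phytochrome-interacting factor that promotes hypocotyl elongation, was at 45.2 CPM at 0 h. A further 14 genes met the limits on the means but had a 0 h library under 20 CPM, and in all 14 that was library 2. They include the seed storage gene CRU3, at 400, 0.541 and 321 CPM in libraries 1, 2 and 3, and the oleosin gene OLEO1, at 70.5, 0 and 49.4 CPM.

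Of the 37 genes, 35 are annotated as protein coding, 1 as a pseudogene and 1 as another RNA. Chromosomes 1 to 5 held 5, 4, 5, 9 and 14 of them. AT1G23050 and AT1G23052 cover the same interval of chromosome 1, bases 8168443 to 8169267 (TAIR10), on opposite strands and had identical counts in all 15 libraries, so the same reads were counted for both and sums take them once, over 36 genes. No member was on any of 15 lists of genes for dark growth, cuticle, wall loosening, seed, hormone response, photosynthesis and tissues. The 37 are 0.360% of all genes at the 0 h limits and the lists are short, so nothing is read from this.

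Counts in group order below are those of CIM at 17 °C, then CIM at 27 °C, then SIM at 17 °C, then SIM at 27 °C, with 3 libraries each. Genes of dehydration and cold response gave the second highest level of the set. LTI65, also called RD29B, encodes a protein of the CAP160 type that is induced by abscisic acid, drought, salt and cold. Its level at 0 h was 217, 188 and 185 CPM in libraries 1, 2 and 3, a mean of 196.7 ± 18.01 (SD, n = 3). In culture it had 5 counts over 12 libraries, with 0, 0, 0 on CIM at 17 °C, 1, 0, 1 on CIM at 27 °C, 2, 0, 0 on SIM at 17 °C and 0, 0, 1 on SIM at 27 °C. The 8 culture libraries at 0 came from all 4 groups. The tandem neighbour LTI78, also called RD29A and likewise a stress-induced gene, starts 1319 bases further on the same strand and did not share this pattern. LTI78 had 831, 829 and 716 counts at 0 h and 39, 39, 40 on CIM at 17 °C, 5, 16, 12 on CIM at 27 °C, 195, 221, 253 on SIM at 17 °C and 9, 6, 12 on SIM at 27 °C. Its mean thus stood at 214 CPM at 0 h and at 56.5 CPM on SIM at 17 °C, a group in which LTI65 had 2 counts. AT4G25580, the other CAP160 gene, was at 36.9, 22.2 and 35.2 CPM at 0 h, with library 2 low, and kept 22 counts in culture. In group order these were 1, 0, 3, then 3, 4, 3, then 0, 0, 1, then 1, 2, 4, so that the gene was detected in each group and at most at 4 counts in a library.

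The 5 genes of lipid and cuticle metabolism were near 0 on CIM and had at most 3 counts in a library of SIM. KCS19 encodes a 3-ketoacyl-CoA synthase, the kind of enzyme that elongates very-long-chain fatty acids for waxes and other lipids. It stood at 129, 124 and 84.9 CPM at 0 h (112.5 ± 24.1, SD, n = 3), with library 3 the low one. Its culture counts were 0, 0, 0 on CIM at 17 °C, 0, 1, 0 on CIM at 27 °C, 0, 0, 0 on SIM at 17 °C and 3, 3, 3 on SIM at 27 °C, so all but 1 of its 10 culture counts came from the last group. AT4G19380, a long-chain fatty alcohol dehydrogenase family gene, was at 119, 120 and 87.3 CPM at 0 h with the same low library 3. Its 8 culture counts were 0, 0, 2, then 1, 0, 0, then 1, 1, 0, then 0, 1, 2, spread thinly over all groups. The lipid transfer family gene AT3G53980 was at 60.9, 65.7 and 59.5 CPM at 0 h and had 1 count on SIM at each temperature and none in CIM. AT4G12520 and AT4G12510, of the same family, were at 35.8 ± 6.83 and 30.6 ± 3.89 CPM (SD, n = 3 each) and had 2 and 3 counts in culture, all on SIM. At 0 h AT4G12520 was at 33.6, 43.5 and 30.4 CPM and AT4G12510 at 29.8, 34.9 and 27.2 CPM, with library 2 the highest for both. These last 2 genes match each other at 93.3% to 94.1% identity over 660 to 750 bases, so how reads were divided between them is uncertain.

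Other members of the same families behaved differently. Of 21 KCS genes in the annotation, 11 met the mean of 30 CPM at 0 h and 5 of those stayed at 30 CPM or more in every culture group. KCS6, a main enzyme of wax precursor synthesis, was at 340 CPM at 0 h and at 112, 131, 50.2 and 22.5 CPM on CIM at 17 °C, CIM at 27 °C, SIM at 17 °C and SIM at 27 °C. KCS3 was at 221 CPM at 0 h and at 2.83 to 9.42 CPM in culture. Within the tandem array of chromosome 4 that holds AT4G12510 and AT4G12520, the azelaic acid response gene AZI1 was at 149 CPM at 0 h and 142, 81.1, 70.4 and 53.2 CPM in the 4 culture groups. EARLI1 was at 24.5 CPM at 0 h and at 148 CPM on CIM at 17 °C, and AT4G12490 was at 0 at 0 h and at 57.9 CPM on CIM at 17 °C. Genes a few kilobases apart in this array thus lay on both sides of the 37.

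Of 26 cuticle and wax genes on a separate list, 14 met 30 CPM at 0 h and 6 stayed there in every culture group. Their summed level was 2009 to 2244 CPM at 0 h, 1728 to 1902 CPM on CIM and 535 to 611 CPM in SIM. In SIM against CIM, 1 of 24 tested was higher and 19 were lower at 17 °C by edgeR's quasi-likelihood test with Benjamini-Hochberg adjustment at a threshold of 0.05, beside 24.7% and 23.4% of all 20704 tested genes, with a median log2 fold change of -1.70 against 0.00 over all tested genes. At 27 °C the numbers were again 1 and 19, beside 24.9% and 24.8%, with a median of -1.76 against -0.01. The epidermis list moved with it, and its part in the cuticle result was not tested. Its 11 genes summed to 572 to 600 CPM at 0 h, 517 to 576 CPM on CIM and 297 to 322 CPM on SIM. They were matched by symbol, and FDH (AT5G14780) and PDF2 (AT3G22480) may not be the epidermal genes of those names. FDH was at 273 CPM at 0 h and 48.2 to 75.3 CPM in culture, a large part of the sum, so the list is a loose guide to the epidermis. In the same test 1 of the 11 was higher on SIM and 8 were lower at 17 °C, with a median log2 fold change of -0.72, and 1 was higher and 6 were lower at 27 °C, with a median of -0.38. WSD1 was the gene on the cuticle and wax list closest to the 37, at 28.3 CPM at 0 h and 0 in every culture group.

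Membrane transport genes included the highest 0 h level per length of exon among the 37. TIP2;3 encodes an aquaporin of the vacuolar membrane, and at 0 h it was at 155, 150 and 153 CPM (152.5 ± 2.57, SD, n = 3), or 130 CPM per kilobase of exon. It had 3 counts in culture, 0, 1, 0 on CIM at 17 °C, 1, 0, 1 on CIM at 27 °C and none in SIM. The 0 h libraries lay within a few percent of each other. The sister aquaporin gene TIP2;2 was at 157 CPM at 0 h and came close to the same pattern, with 3, 6, 3 counts on CIM at 17 °C, 6, 6, 10 on CIM at 27 °C, 0, 2, 0 on SIM at 17 °C and 0, 1, 0 on SIM at 27 °C. DELTA-TIP was at 103 CPM at 0 h and 38.0 to 135 CPM in culture. It was the 1 gene that kept 30 CPM throughout among 8 family members found by symbol, a search that may have missed others.

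SWEET3, of the family of sugar carriers that move sugars down their gradient, was at 49.7, 51.6 and 41.9 CPM at 0 h and had 1 count on CIM and 1 in SIM, both at 27 °C. SWEET11 and SWEET12, which load sucrose for the phloem in leaves, were higher at 0 h, at 210 and 183 CPM, and were missed by the choice through CIM at 17 °C alone, where they were at 1.17 and 3.25 CPM. SWEET11 had 2, 1, 11 counts in that group and SWEET12 had 5, 6, 28, most of them in library 3. In SIM, SWEET12 had 0 counts in all 6 libraries and SWEET11 had 1. Of 15 SWEET genes found by symbol, which may not be the whole family, 5 met 30 CPM at 0 h and none of these kept it in every culture group. The major facilitator genes AT2G16980 and AT3G45700 were at 49.2 ± 2.60 and 31.2 ± 2.07 CPM at 0 h (SD, n = 3 each). AT2G16980 had 179, 192 and 175 counts at 0 h and, in group order, 3, 3, 4, then 0, 1, 0, then 2, 1, 1, then 1, 3, 0, highest on CIM at 17 °C. AT3G45700 had 108, 124 and 115 counts at 0 h and 0, 0, 1, then 0, 2, 0, then 1, 5, 2, then 1, 0, 0, highest on SIM at 17 °C. A stretch of AT2G16980 matches the gene AT2G16970 at 90.1% identity over 152 bases, so some of its reads may be assigned uncertainly.

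Hormone metabolism was represented by 2 enzymes. CYP714A1 is a cytochrome P450 that inactivates gibberellins. It had 201, 194 and 177 counts at 0 h, which is 51.5 ± 3.90 CPM (SD, n = 3), and 0 in all 12 culture libraries, where the choice had allowed up to 1 CPM in each group. The other CYP714A gene, CYP714A2, was under 1 CPM in every group. YUC2 encodes a flavin monooxygenase that makes IAA from indole-3-pyruvate, and had 121, 117 and 111 counts at 0 h (31.4 ± 1.71 CPM, SD, n = 3). In culture it had 0, 1, 5 counts on CIM at 17 °C, none on CIM at 27 °C, 1, 0, 0 on SIM at 17 °C and 1, 0, 0 on SIM at 27 °C. Of 11 YUC genes, YUC6 was the other at 30 CPM or more at 0 h, with 80.1 CPM there and 13.3 to 36.1 CPM in culture. YUC4 went the other way, from 0.0901 CPM at 0 h to 4.03 and 16.5 CPM on CIM and 6.47 and 25.4 CPM on SIM at 17 °C and 27 °C.

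The 5 transcription factor genes differed in the counts they kept in culture, with 22, 11 and 19 in the first 3 below and 4 and 1 in the others, beside a median of 8 over the 37 genes. bZIP3, of the basic leucine zipper family, was at 57.4, 64.9 and 59.3 CPM at 0 h (60.5 ± 3.91, SD, n = 3). Its culture counts were 1, 3, 8 on CIM at 17 °C, 0, 2, 0 on CIM at 27 °C, 3, 2, 3 on SIM at 17 °C and 0, 0, 0 on SIM at 27 °C, so more were found at 17 °C than at 27 °C on both media. The C2H2 zinc finger gene AT1G14580 had 141, 162 and 164 counts at 0 h (42.0 ± 3.05 CPM, SD, n = 3) and 2, 1, 2, then 0, 1, 0, then 2, 0, 3, then 0, 0, 0 in group order. Another zinc finger gene, AT5G54630, had 131, 113 and 118 counts at 0 h (32.6 ± 2.79 CPM, SD, n = 3) and 3, 0, 5, then 3, 2, 2, then 1, 3, 0, then 0, 0, 0. All 3 of these genes had no count on SIM at 27 °C. AT5G43540 had 137, 107 and 150 counts at 0 h, with library 2 low, and 4 in culture, 1 on CIM and 3 on SIM, both at 17 °C, and HSFA6A, which encodes a heat shock factor, was at 34.7 CPM with 1 count, on CIM at 27 °C.

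Among cell wall and secreted proteins the peroxidase gene AT5G19890 was highest, at 113, 106 and 97.2 CPM at 0 h (105.5 ± 7.97, SD, n = 3). Its 2 culture counts were both in library 3 of CIM at 17 °C, which left 11 of the 12 culture libraries at 0. The glycine-rich protein gene AT4G30450 had 198, 213 and 186 counts at 0 h (53.8 ± 3.97 CPM, SD, n = 3) and 0 in all 9 libraries of 3 culture groups, but 5, 3, 3 on SIM at 27 °C. AT2G34700, of the Ole e 1 and extensin family, was at 47.8, 39.7 and 28.8 CPM at 0 h and had no count in CIM, 2, 6, 3 on SIM at 17 °C and 5, 0, 1 on SIM at 27 °C. A sequence 95.1% identical to part of AT2G34700 lies on chromosome 2 outside any annotated gene, over 202 bases, so its counts carry that uncertainty. AT1G23050, for a hydroxyproline-rich glycoprotein, had 167, 163 and 174 counts at 0 h (45.4 ± 1.21 CPM, SD, n = 3) and 1, 0, 4, then 2, 4, 3, then 3, 2, 3, then 1, 0, 3 in group order, present in every group. The glyoxal oxidase-related gene AT1G19900 was at 40.4 CPM with 5. AT1G14160 encodes a protein like the CASP proteins that mark the Casparian strip of the endodermis, and was at 30.4 ± 3.61 CPM (SD, n = 3) with 5 counts in culture. The CASP1 gene itself was at 56.7 CPM at 0 h and at 0.325, 0.0750, 15.01 and 0.158 CPM on CIM at 17 °C, CIM at 27 °C, SIM at 17 °C and SIM at 27 °C.

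Signalling proteins and other enzymes made up 9 of the 37 genes. MLO3, of the seven-transmembrane family named for mildew resistance in barley, had the highest level at 0 h and the smallest spread. It had 810, 818 and 836 counts, which is 221, 221 and 223 CPM (221.8 ± 1.17, SD, n = 3). In culture it had 1, 2, 5 on CIM at 17 °C, 0, 0, 0 on CIM at 27 °C, 2, 0, 1 on SIM at 17 °C and 0, 2, 1 on SIM at 27 °C. MLO3 overlaps IVD, a gene of leucine breakdown on the opposite strand, by 1168 bases. IVD had 794, 768 and 795 counts at 0 h, or 212 CPM, and 75 to 130 counts in each culture library, in which MLO3 had at most 5. Reads in the shared bases may have been counted for both genes, whatever their strand. In culture at most 5 reads of a library can have been counted for both, as MLO3 had no more. How many of the 0 h counts of either gene belong to the other is uncertain. Of 15 MLO genes 6 met 30 CPM at 0 h and 4 stayed there, among them MLO10, at 115 CPM at 0 h and 67.4 to 108 CPM in culture.

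The serine carboxypeptidase-like gene SCPL13 had 277, 311 and 323 counts at 0 h (82.0 ± 5.59 CPM, SD, n = 3) and 0, 0, 3, then 0, 0, 0, then 2, 0, 0, then 3, 0, 0 in group order, in 1 library of each of 3 groups. Its neighbour SNG1, a gene of the same family whose enzyme makes sinapoylmalate, missed the culture limit, with 113 CPM at 0 h and 0.904 to 2.42 CPM in culture. AT4G38690, of the phospholipase C-like phosphodiesterases, had 278, 261 and 261 counts at 0 h (72.1 ± 3.38 CPM, SD, n = 3) and 1, 6, 4, then 1, 6, 1, then 4, 0, 0, then 0, 3, 3 in group order. These 29 counts were the most of the 37 genes. The nudix hydrolase gene NUDT8 had 250, 269 and 239 counts at 0 h and 0, 2, 0, then 0, 3, 0, then 0, 0, 1, then 0, 0, 1. The DNAse I-like gene AT2G01900 had 178, 195 and 174 counts at 0 h and 0, 0, 9, then 0, 1, 0, then 0, 0, 0, then 0, 1, 0, so that 9 of its 11 culture counts were in 1 library. The phosphoglycerate mutase family gene AT5G04120 had 138, 174 and 150 counts at 0 h and 0 in all 12 culture libraries. With CYP714A1 it was 1 of 2 genes with no count in culture. AT3G01260, AT4G17470 and AT5G01740, for a galactose mutarotase-like protein, an alpha/beta-hydrolase and an NTF2 family protein, were at 40.7, 40.2 and 30.7 CPM with 1, 3 and 13 culture counts. AT5G01740 had 124, 133 and 84 counts at 0 h, with library 3 low, and 5 of its 13 culture counts were in library 2 of CIM at 27 °C.

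The remaining genes have no known product. AT4G37700 had 184, 183 and 168 counts at 0 h (48.2 CPM) and 1 in library 2 of either CIM group. AT5G54585 had 129, 127 and 98 counts at 0 h (31.9 CPM) and, in group order, 0, 0, 0, then 0, 0, 1, then 4, 2, 3, then 3, 2, 4, with the SIM libraries all above the CIM libraries. The pseudogene AT3G56275 had 105, 126 and 103 counts at 0 h (30.1 CPM) and 4 in culture, and AT1G23052 was counted with AT1G23050.

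**Figure D2:**
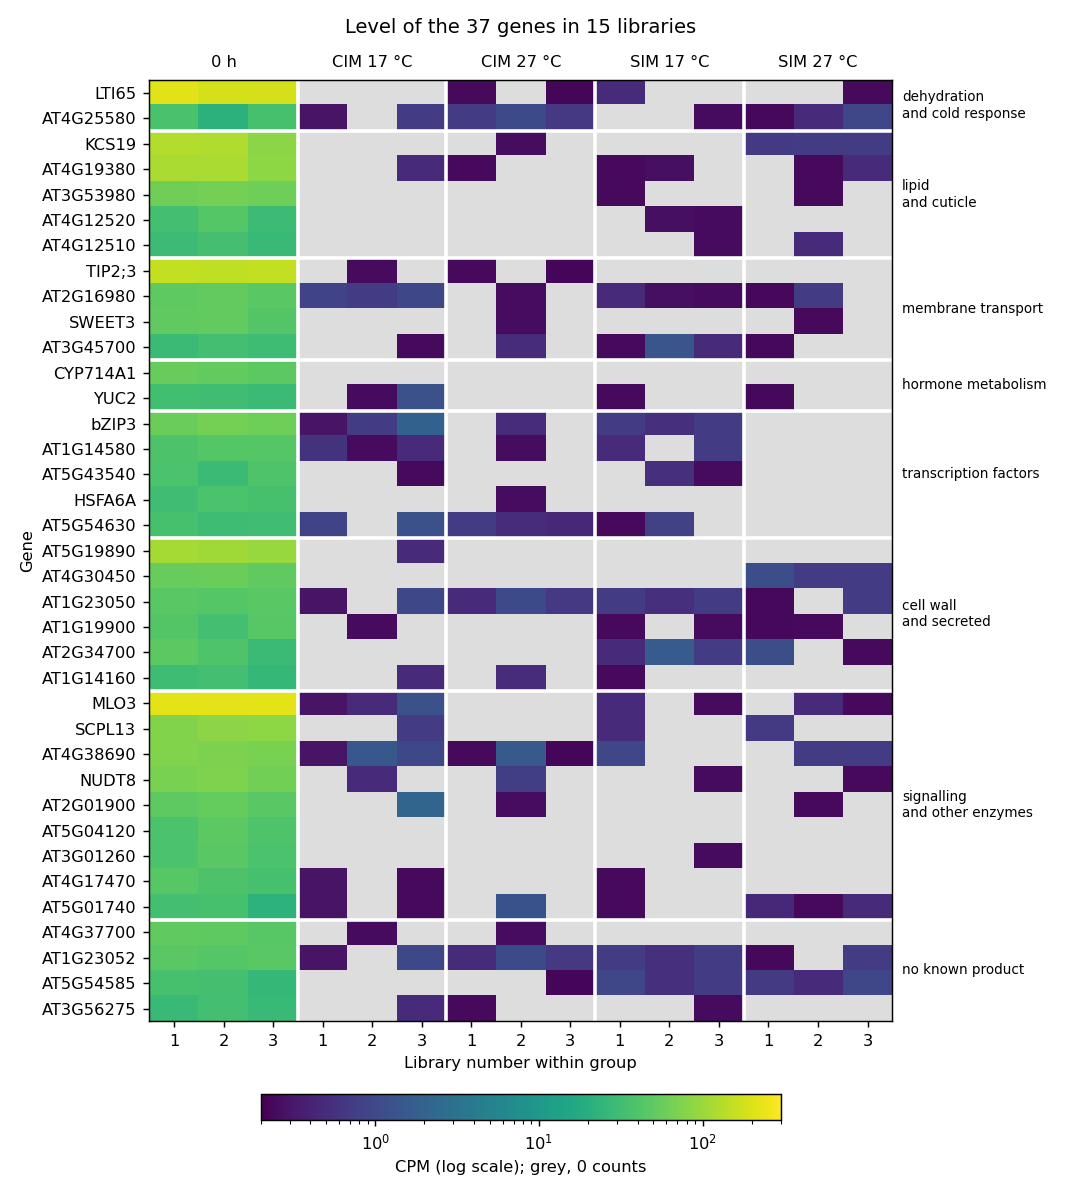
Level of each of the 37 genes (CPM, colour on a log scale; grey is 0 counts) in the 15 libraries, in columns by group and rows by the role of the gene. The 0 h columns are green to yellow throughout, AT4G30450 has coloured cells in culture only under SIM at 27 °C, and CYP714A1 and AT5G04120 are grey in all 12 culture columns.

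Of the genes next to a member, 70 were not themselves among the 37. Of these, 27 met the limits at 0 h, and 16 of the 27, or 59.3%, stayed at 30 CPM or more in every culture group, beside 78.6% of all genes at the 0 h limits. Members were left out of the 70, which removes any neighbour that met all the limits. A level of at least 20 CPM at 0 h with every culture mean under 10 CPM was found for 5 of the 70, by limits set after the values were seen. These were SNG1, AT3G45710 beside AT3G45700, at 106 CPM at 0 h and 0.948 to 3.15 CPM in culture, and AT4G30460 beside AT4G30450, at 45.7 CPM at 0 h and 0.0815, 0.0796, 0.414 and 5.67 CPM in the 4 culture groups. AT4G19370 beside AT4G19380 was at 23.3 CPM at 0 h and 1.25 to 6.88 CPM in culture. MDP40, beside the shared interval of AT1G23050 and AT1G23052, was at 21.7 CPM at 0 h and 0.238 to 4.36 CPM in culture. SNG1, AT3G45710, AT4G30460 and AT4G19370 lie on the strand of the member beside them. MDP40 lies on the strand of AT1G23052 and opposite AT1G23050, which hold the same reads. The share of all genes within these limits, and of all neighbours on the same strand, was not counted, so nothing is read from these 5 genes.

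The spread of the 37 genes over the 0 h libraries was uneven. The ratio of the highest to the lowest 0 h library ran from 1.01 for MLO3 to 1.66 for AT4G25580 and AT2G34700, with a median of 1.17 against 1.09 over all genes at the 0 h limits. Library 3 was the lowest for 23 of the 37 genes, or 62.2%, where it was the lowest for 36.99% of all genes at the 0 h limits. Library 2 was the lowest for 8 (21.6% against 30.5%) and library 1 for 6 (16.2% against 32.5%). For AT4G25580 library 2 was the low one, at 22.2 CPM, and in that library the seed storage and oil body list was also lowest. Whether the seed RNA bears on the level of AT4G25580 was not tested.

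**Figure D3:**
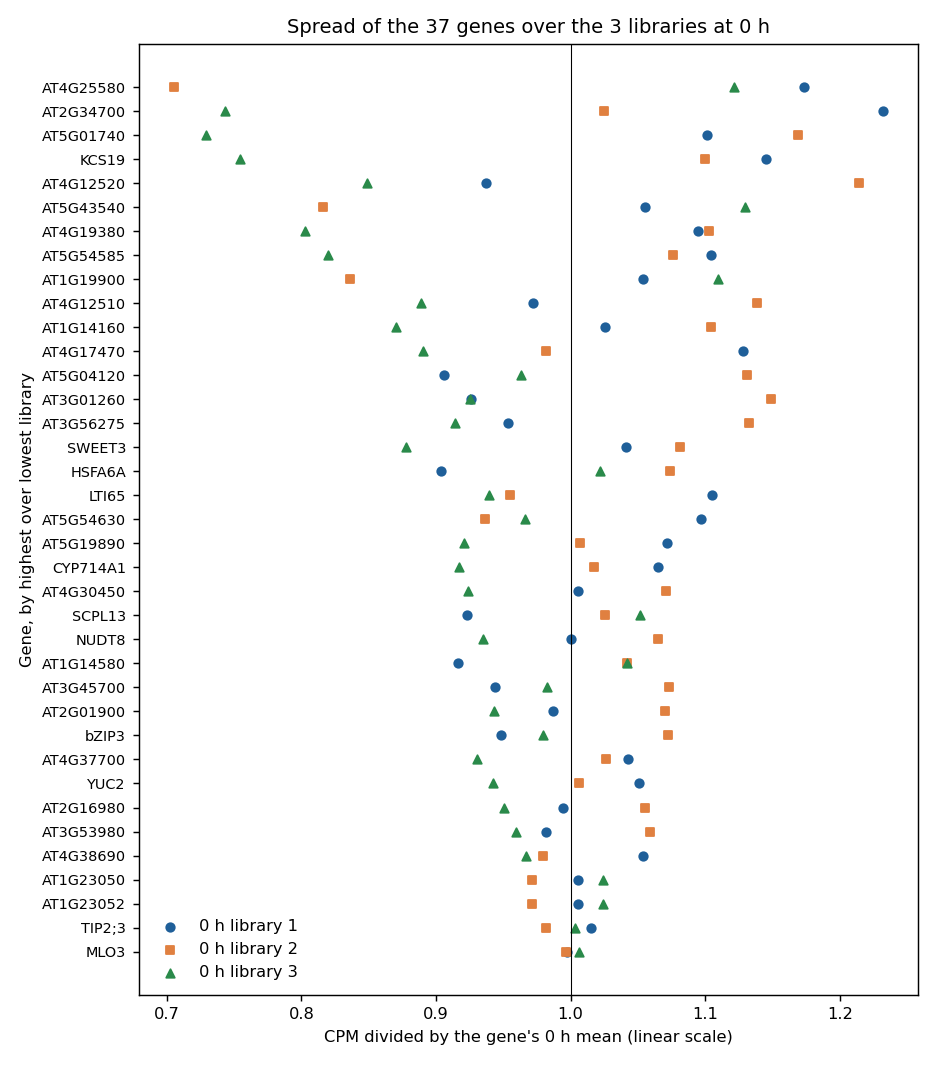
CPM in each 0 h library divided by the mean of the gene over the 3 libraries (linear scale), with the 37 genes ordered by the ratio of highest to lowest library. Triangles, for library 3, are leftmost for 23 genes, and the points of MLO3 and TIP2;3 nearly coincide.

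The few counts left in culture were not evenly divided among libraries of a group. Summed over the 36 separately counted genes, the 0 h libraries had 8387, 8425 and 7813 counts. CIM at 17 °C had 15, 21 and 64, CIM at 27 °C had 13, 37 and 12, SIM at 17 °C had 35, 25 and 27, and SIM at 27 °C had 27, 26 and 28. Library 3 of CIM at 17 °C and library 2 of CIM at 27 °C thus stood above the others of their groups. The first of these also had a photosynthesis sum of 580 CPM against 294 and 311 CPM, and the second had a count on 24396 genes against 22343 and 22350. The photosynthesis list was at 352 to 402 CPM on CIM at 27 °C, 933 to 975 CPM on SIM at 17 °C and 1403 to 1501 CPM on SIM at 27 °C. The part of either difference in the residual counts was not tested. Values that rest on these groups are given below with and without the 2 libraries.

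**Figure D4:**
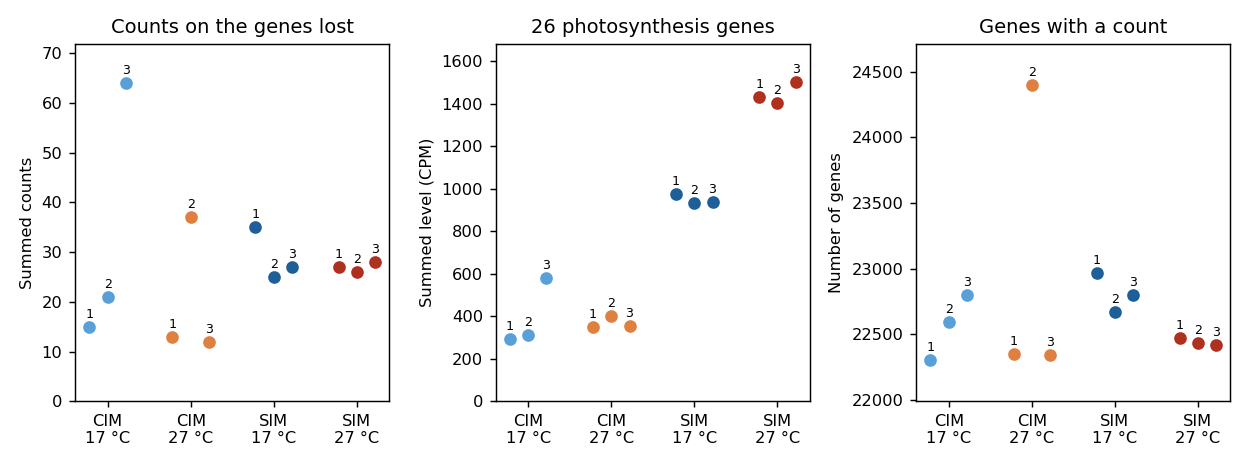
For each culture library, numbered within its group, the counts summed over the 36 separately counted genes (left), the summed level of 26 photosynthesis genes in CPM (middle) and the number of genes with a count (right, axis not from 0). Library 3 of CIM at 17 °C stands above its group in the left and middle panels, and library 2 of CIM at 27 °C in the left and right panels.

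All 37 genes passed the filter on low counts of the edgeR fit through the 0 h libraries alone, and the choice had limited every culture mean to 1 CPM. In that fit, 4 of the 37 were past the threshold for 27 °C against 17 °C after CIM, beside 42.6% of all tested genes, 4 after SIM (43.6%), 4 for SIM against CIM at 17 °C (48.1%) and 3 at 27 °C (49.7%). Without library 3 of CIM at 17 °C and library 2 of CIM at 27 °C the numbers were 2, 4, 2 and 2. Nothing is read from them, since the choice used these levels and the 0 h libraries help to set the spread of each gene. The genes concerned were picked by that fit, so that they differ between groups follows from how they were picked. They are described by their counts, which were at most 12 over a group, so differences between groups are limited by depth.

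On CIM the 4 genes had more counts at 17 °C than at 27 °C. MLO3 had 8 counts over the libraries of CIM at 17 °C and 0 at 27 °C, or 3 and 0 without the 2 libraries. Its libraries at 17 °C, with 1, 2, 5 counts, were all above those at 27 °C. YUC2 had 6 and 0, or 1 and 0 without them, so that 5 of its counts were in library 3. bZIP3 had 12 and 2 counts, or 4 and 0 without them. Both YUC2 and bZIP3 overlapped between the temperatures. The major facilitator gene AT2G16980 had 10 and 1, or 6 and 0, and its 3 libraries at 17 °C, with 3, 3, 4 counts, were all above those at 27 °C too. The share of all genes without such overlap is not given here, so nothing is read from it.

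On SIM the genes went both ways with temperature. The glycine-rich protein gene AT4G30450 had 11 counts at 27 °C and 0 at 17 °C, and KCS19, which was not past the threshold and was picked after its values were seen, had 9 and 0. Both had counts in every library at 27 °C. AT4G30460, the neighbour of AT4G30450, had 29, 18, 25 counts at 27 °C against 3, 1, 1 at 17 °C, where it was at 5.67 and 0.414 CPM, beside 45.7 CPM at 0 h. bZIP3 had 0 counts at 27 °C and 8 at 17 °C, and the zinc finger gene AT1G14580 had 0 and 5, though 1 of its libraries at 17 °C was at 0 too. AT3G45700 had 1 and 8, with groups that overlapped.

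Between the media, AT5G54585 and AT2G34700 had all or most of their counts on SIM. AT5G54585 had 9 counts on SIM and 0 on CIM at 17 °C, and 9 and 1 at 27 °C, with the same numbers when the 2 CIM libraries were left out. AT2G34700 had 11 and 0 at 17 °C, and AT3G45700 had 8 and 1, or 8 and 0 without library 3 of CIM at 17 °C. AT2G01900 had 0 on SIM and 9 on CIM at 17 °C, all in that library, and 0 and 0 without it. At 27 °C, AT4G30450 had 11 counts on SIM and 0 on CIM, while AT5G54630 had 0 and 7, or 0 and 5 without library 2 of CIM at 27 °C. Whether the temperature difference of any of these genes changed between the media was not tested.

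**Figure D5:**
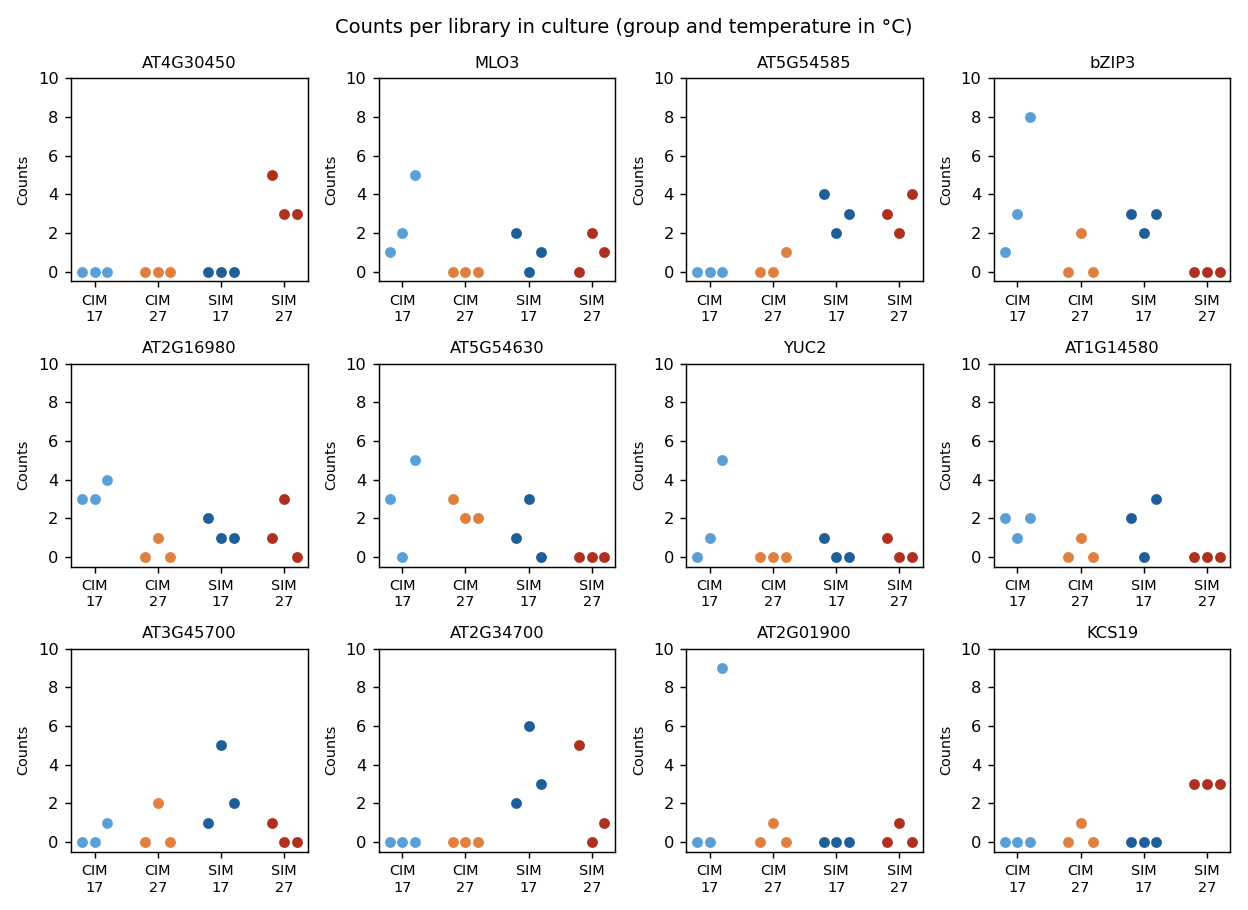
Counts of 12 genes in each of the 12 culture libraries, 1 point a library, with groups by medium and temperature in °C on the horizontal axis and counts on the vertical axis. AT4G30450 has counts only on SIM at 27 °C (5, 3, 3), AT5G54585 has them in both SIM groups with 1 more on CIM at 27 °C, and the single high point of AT2G01900 is the 9 counts of library 3 of CIM at 17 °C.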

How the data were processed

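RNA of about 100 pooled hypocotyl explants a sample was extracted with an RNeasy kit and made into libraries with a KAPA Stranded mRNA-seq kit, per the labels. The authors deposited 1 table of raw counts, with whole read numbers for 33602 genes in 15 libraries and TAIR10 coordinates. The submitters' processing notes name FastQC 0.11.7, Bowtie2 2.3.4.3, SAMtools 1.9 and bedtools 2.26.0. Their settings, and whether strand or duplicates were considered, are not given in the sources used here. Each column of values was matched to 1 library by its name, and 0 columns remained unmatched.

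CPM was the count divided by the column total, without further scaling, as the choice of genes requires. Totals were 3427707 to 4446863, and 22303 to 24396 genes had a count. The 3-count floor covers counting error only. Coordinates are those of the table, with starts counted from 1. RefSeq TAIR10.1 matched 32835 identifiers, all 37 genes among them. Promoters and exon lengths came from it, and near-identical copies were searched with blastn 2.17.0 at 90% identity over at least 100 bases.

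All 15 libraries entered 1 edgeR 4.0.16 quasi-likelihood fit in R 4.3.3 with a mean per group, TMM scaling (factors 0.907 to 1.04) and filterByExpr, which left 20704 genes. The 4 comparisons were adjusted by Benjamini and Hochberg over all genes tested. The step was run on data simulated from the SIM groups alone. Changes were set only at genes with higher counts than the 37 had in culture, so it does not cover the calls on these genes. The 4 culture comparisons share libraries with each other. The change of the temperature effect between the media was tested in the same fit and adjusted in the same way. Since the choice limited the culture levels of the 37 genes, their calls are counted and not read as results. All 37 genes may be named. The rule gives values by library for those highest at 0 h per library total or per exon length, called in a culture comparison or most uneven over the 0 h libraries. Relatives, neighbours, KCS19 and the ABRE core were added after values were seen. The genes and lists were chosen with earlier results of these data known.

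Alternatives were DESeq2 1.42.0, its size factors, no filter on low counts, the replicate number as a block, each library left out in turn, library 1 merged with library 3 of CIM at 27 °C, and other limits for the choice of genes. Same-numbered libraries had correlations of their deviations from the group means of -0.20 to 0.0577 over 30 pairs, so the numbers do not pair the libraries. Within CIM at 27 °C and both SIM groups the chi-square per gene between libraries was 0.720 to 0.895, below counting noise.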

Additional observations from a re-analysis of the deposited data

How the results depend on the processing

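The choice of genes depends on its limits: 58 genes were chosen with a 0 h mean of at least 20 CPM, 13 with 50, 23 with a culture limit of 0.5 CPM, 70 with 2, and 24 with at most 1 CPM in each culture library. With TMM-scaled CPM 42 were chosen and with DESeq2 size factors 43, all 37 among them. Leaving out a 0 h library gave 34 to 52 genes, the 52 without library 2 holding 33 of the 37, and leaving out library 3 of CIM at 17 °C and library 2 of CIM at 27 °C gave 46. The counts of calls among the 37 genes that follow are not read as results, since the choice used their culture levels. Of the 4 genes called for temperature after CIM, leave-one-out gave 2 to 5, with 2 without library 3 of CIM at 17 °C and 2 without both CIM libraries. For temperature after SIM, 4 became 2 to 5, with 2 without library 3 of SIM at 27 °C. For SIM against CIM at 17 °C, 4 became 1 to 5, with 2 by DESeq2, 2 without library 1 of the 0 h group and 2 without both CIM libraries, and at 27 °C, 3 became 2 to 5, with 5 by DESeq2 and 5 without library 3 of the 0 h group. With the replicate number as a block, 2 were called for SIM against CIM at 17 °C and 5 at 27 °C, and since the numbers do not pair the libraries, a call lost there is no sign of a weaker effect. Over all tested genes, leave-one-out gave 7456 to 8931 calls for temperature after CIM, 7916 to 9177 after SIM, 9023 to 10105 for the medium at 17 °C and 9310 to 10368 at 27 °C. No call among the 37 genes changed direction in these alternatives, but they share most of their libraries and counts, so nothing is read from that either. Apart from AT4G30460, direction was not compared for other genes. A fit of the compared groups alone left none of the 37 genes after its filter, so it gave no value. The alternatives without a 0 h library or without both CIM libraries were added after the data were seen. No cause of these differences was tested, and calls that rest on at most 12 counts a group are limited by depth.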
